A study of Mus musculus with 41 samples.

Results

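*Ccr2* and the genes of its monocyte-recruiting ligands, *Ccl2*, *Ccl7* and *Ccl12*, were 4 of the 54 target genes measured by quantitative PCR in tissue from 41 female NSG mice, and they were taken from the table by name. CCR2 is the chemokine receptor that inflammatory monocytes use to leave the bone marrow and enter injured tissue. CCL2, CCL7 and CCL12 are small secreted proteins that bind it. They are released by fibroblasts, endothelium, macrophages and other cells of a wound, and monocytes that follow them around an implant become the macrophages that fuse into foreign body giant cells.

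P mice received an electrospun PLACL nanomesh in skin pockets of the lower abdomen, and P+eMSC mice received the same nanomesh with mCherry-labelled human endometrial mesenchymal stem/stromal cells (eMSC, sorted for SUSD2 from biopsies) added on top. Each eMSC line came from the biopsy of 1 woman, and the labels do not say which mouse received which line, so P+eMSC mice of both weeks may share a donor. Sham controls were labelled so, and their procedure was not given in the sources used here. Skin, in implanted mice the tissue close to the mesh and not the cells within it, was collected after 1 week (7 sham, 6 P and 7 P+eMSC mice) or 6 weeks (6 sham, 8 P and 7 P+eMSC mice). All of the hosts were NSG, an immunodeficient strain that lacks T, B and NK cells and keeps monocytes and macrophages of impaired function, so these chemokines had no lymphocytes to recruit. Ages were not given in the sources used here, some animals had also served in an earlier study, and whether the mouse assays read human transcripts from eMSC was not tested.

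Values are the 18S Ct minus the gene Ct of a mouse, on a log2 scale where higher is more transcript and a difference of 1 is 1 PCR cycle. Levels of different genes were not compared, because each assay has its own efficiency. In bulk tissue, fewer *Ccr2*-bearing cells and less *Ccr2* RNA per cell cannot be told apart. *Ccr2* and *Ccl12* were detected in 41 of 41 mice and *Ccl2* and *Ccl7* in 40. A median Ct of 19.9 for *Ccl2*, 19.9 for *Ccl7*, 17.7 for *Ccl12* and 18.8 for *Ccr2* was reached after preamplification. The skin markers *Col1a1* and *Col3a1* (dermal fibroblasts) and *Mrc1* (macrophages) were detected in 41 mice, and *Cdh1* (epidermis), *Vcam1* and *Icam1* (activated endothelium) in 40.

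Of the 41 mice, 3 stood apart and are followed through the results. Mouse 52 (P, 6 weeks) had no Ct for 31 of the 54 target genes, *Ccl2* and *Ccl7* among them, and the highest 18S Ct of all mice, 7.79 against a median of 6.82. Mouse 2356 was labelled P at 6 weeks, but the fold changes deposited for it lay within 0.01 (log2) of ratios to the 1 week sham controls in 49 of 54 genes and to the 6 week sham controls in 1. The other 27 of the 28 implanted mice matched the sham controls of their own labelled week in more genes. Mouse 2269 (sham, 1 week) had the highest value of all mice for each of the 4 genes, while its 18S Ct of 6.56 lay within the range of its group (6.53 to 7.44).

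In the RefSeq annotation of the mouse (GRCm38.p6), *Ccl2*, *Ccl7*, *Ccl11* and *Ccl12* follow each other in this order on chromosome 11, and *Ccr2* is on chromosome 9. The sequence tables used here held upstream sequence for *Ccl12* and *Ccr2*, not for *Ccl2* and *Ccl7*. The 250 bases before the start of *Ccl12*, the ligand whose level followed *Ccr2* most closely across mice against 18S, are shown 5′ to 3′ on the + strand, at chr11:82101595-82101844. The capitals mark a TATAAA match, the letters of a TATA box, which begins 31 bases before the start of the gene.
Ccl12 upstream: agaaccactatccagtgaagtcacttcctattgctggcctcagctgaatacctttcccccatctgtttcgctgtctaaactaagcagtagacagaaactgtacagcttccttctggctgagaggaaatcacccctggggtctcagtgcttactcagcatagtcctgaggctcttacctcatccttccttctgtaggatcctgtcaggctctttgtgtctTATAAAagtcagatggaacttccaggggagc
TATAAA was present on either strand in 12.4% of 32851 mouse windows of this length. The window of *Ccr2* did not hold it. Neither window held the letters GGGANTTCC (NF-kB, in 1.43% of windows), TGANTCA (AP-1, 6.75%) or GGGCGG (Sp1, 32.7%) on either strand, which says only that these letters are not in these bases.

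*Ccl2*, the main CCR2 ligand, ranged in the sham controls of 1 week from -15.04 to -8.02 with a median of -13.69. In P at 1 week it ranged from -14.95 to -8.85 with a median of -10.32, and in P+eMSC from -15.39 to -9.84 with a median of -13.20. The P mice fell into 4 with high values (-11.09 to -8.85) and 2 with low ones, mouse 133 (-13.89) and mouse 2355 (-14.95). At 6 weeks the medians lay closer together. *Ccl2* ranged from -14.19 to -10.09 (median -13.29) in sham, from -14.71 to -9.77 (median -12.85) in the 7 P mice with a Ct, and from -15.52 to -9.50 (median -13.10) in P+eMSC. All groups overlapped.

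*Ccl7*, which shares its receptor with *Ccl2* and lies next to it, had the same order at 1 week. It ranged from -15.01 to -8.02 (median -13.92) in sham, from -14.35 to -9.34 (median -10.39) in P and from -15.00 to -10.49 (median -12.67) in P+eMSC. At 6 weeks it ranged from -14.56 to -10.17 (median -13.53) in sham, from -13.78 to -9.76 (median -12.88) in P and from -15.06 to -9.08 (median -12.74) in P+eMSC. The same mice, 133 and 2355, were the low ones of P at 1 week (-14.16 and -14.35). They were low over the whole panel: the median of 21 other target genes against 18S was -9.64 and -9.84 in them and -8.35 to -6.41 in the 4 other P mice.

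*Ccl12*, a ligand that mice have and humans lack, ranged at 1 week from -13.57 to -6.62 (median -11.75) in sham, from -12.33 to -7.84 (median -9.10) in P and from -13.39 to -8.97 (median -10.75) in P+eMSC. At 6 weeks it ranged from -12.39 to -7.95 (median -11.00) in sham, from -16.69 in mouse 52 to -7.89 in mouse 2356 (median -10.80) in P, and from -13.55 to -7.58 (median -10.63) in P+eMSC. Mice 52 and 2356 thus formed both ends of the P group.

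*Ccr2*, the receptor, ranged at 1 week from -14.38 to -7.38 (median -12.86) in sham, from -14.09 to -8.43 (median -10.94) in P and from -15.17 to -9.26 (median -11.17) in P+eMSC. At 6 weeks it ranged from -12.83 to -9.77 (median -12.10) in sham, from -20.29 in mouse 52 to -8.70 in mouse 2356 (median -12.90) in P, and from -14.31 to -8.19 (median -11.26) in P+eMSC. Without those mice, the 6 remaining P mice lay between -14.49 and -12.28.

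**Figure D1:**
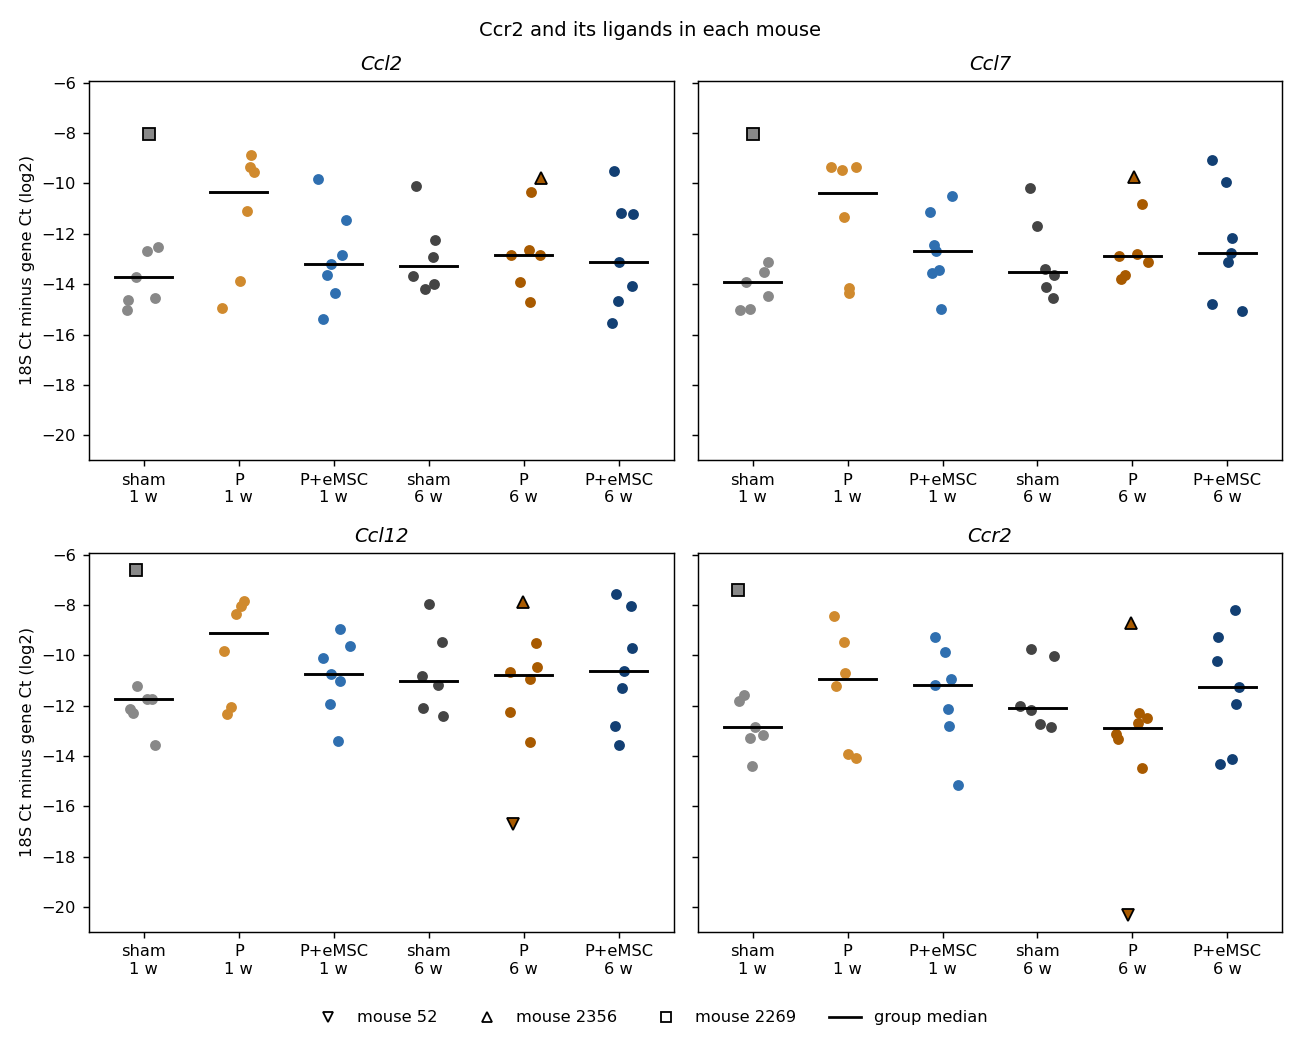
Level of *Ccl2*, *Ccl7*, *Ccl12* and *Ccr2* in each mouse, as 18S Ct minus gene Ct (log2, vertical axis), by treatment and week; each point is 1 mouse and each bar a group median. Every group overlaps every other, the medians of all 4 genes are highest in P at 1 week, and mouse 2269 is the highest mouse in each panel; mouse 52 had no Ct for *Ccl2* and *Ccl7* and is absent there.

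In all 4 genes the highest group median was that of P at 1 week. The lowest was that of the 1 week sham controls for the 3 ligands and that of P at 6 weeks for *Ccr2*. No neighbours in the order of the 6 medians differed beyond the spread between mice (exact two-sided Mann-Whitney U test, exact p from 0.366 to 1), and neither did the highest and the lowest group (exact p from 0.234 to 0.366).

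The study asked whether eMSC change the tissue response to the nanomesh, so P+eMSC was compared with P. A gene is called where the exact Mann-Whitney p is at most 0.0513, the threshold of the study. The size is the Hodges-Lehmann shift (the median of all differences between a mouse of the first group and a mouse of the second) with its exact 95% interval. Against 18S, 0 of the 4 genes were called at 1 week, where 0% of all 54 genes were called, and 0 of 4 at 6 weeks, where 18.5% were called. At 1 week all 4 shifts were below 0. *Ccl2* had a shift of -1.99 (-4.77 to 1.33, exact p = 0.234, adjusted p = 0.981 over 54 genes), *Ccl7* of -1.51 (-4.09 to 1.68, exact p = 0.366), *Ccl12* of -1.21 (-3.54 to 1.58, exact p = 0.366) and *Ccr2* of -0.43 (-3.32 to 2.92, exact p = 0.836). The intervals include large changes in either direction. The median shift was -1.36 over the 4 genes and -0.07 over all 54.

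At 6 weeks the shifts of the ligands against 18S lay below that of the receptor. The shift was -0.48 for *Ccl2* (-2.76 to 2.69, exact p = 0.710), 0.05 for *Ccl7* (-2.27 to 2.94, exact p = 1), 0.70 for *Ccl12* (-2.14 to 3.74, exact p = 0.694) and 1.94 for *Ccr2* (-1.44 to 4.91, exact p = 0.189, adjusted p = 0.409). The median shift of all 54 genes was 1.15, and 47 of them were above 0. Against 18S, *Ccr2* thus lay above and the ligands below the middle of the panel. The common shift of the panel moved with the reference. The median of the 21 target genes detected in all mice (*Ccl12* and *Ccr2* left out), against 18S, ranged from -16.95 to -7.36 in P and from -8.67 to -4.90 in P+eMSC at 6 weeks. The -16.95 was that of mouse 52 alone, and the next lowest P mouse was mouse 53 at -10.33.

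When each gene was set against that panel median and not against 18S, all 3 ligands were called lower in P+eMSC than in P at 6 weeks and *Ccr2* was not. 14.8% of the 54 genes were called lower. The median shift of all 54 genes was -0.40 with this reference, and 12 of them were above 0. The reference itself differed between the groups: against 18S its group median was -8.32 in P and -6.86 in P+eMSC. Against this reference the 6 week medians of sham, P and P+eMSC were -5.89, -4.75 and -6.33 for *Ccl2*, -5.87, -4.32 and -6.07 for *Ccl7*, and -3.70, -2.34 and -4.08 for *Ccl12*. Those of *Ccr2* were -4.28, -4.28 and -4.50, so the ligand medians of P lay above both other groups and the receptor median did not. *Ccl2* had a shift of -1.63 (-4.06 to -0.12, exact p = 0.0379), *Ccl7* of -1.59 (-3.09 to -0.14, exact p = 0.0379) and *Ccl12* of -1.32 (-3.21 to -0.13, exact p = 0.0289), each with an adjusted p of 0.227. The shift of *Ccr2* was -0.40 (-1.51 to 1.08, exact p = 0.536), close to the median of all 54 genes. At 1 week *Ccl2* was called lower (-1.78, -3.45 to -0.09, exact p = 0.0221, adjusted p = 0.399), as were 9.26% of the 54 genes, and *Ccl7* (-1.40, exact p = 0.0734), *Ccl12* (-1.05, exact p = 0.138) and *Ccr2* (-0.46, exact p = 0.366) were not. None of the 54 genes passed an adjusted p below 0.05 in either week with this reference (3 at 1 week and 9 at 6 weeks had an unadjusted exact p below 0.05). At 6 weeks, without mice 52 and 2356, only *Ccl7* was called (-1.43, exact p = 0.0513, with 9.26% of all genes called lower), beside *Ccl2* at -1.52 (exact p = 0.0734) and *Ccl12* at -1.13 (exact p = 0.101). Leaving out a single mouse ended the call for 8 of the mice in *Ccl2*, 5 in *Ccl7* and 7 in *Ccl12* at 6 weeks, while the shifts stayed between -1.92 and -1.18, and for none in *Ccl2* at 1 week. With 2 other panel references, chosen after seeing the data (the median with *Ccl12* and *Ccr2* kept in, and the mean of the 21 genes), *Ccl2* alone was called at 6 weeks, beside *Ccl7* (exact p = 0.0530) and *Ccl12* (exact p = 0.0721), and *Ccl2* and *Ccl7* were called at 1 week. With each of them 1.85% of all genes were called lower at 6 weeks and 9.26% at 1 week.

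**Figure D2:**
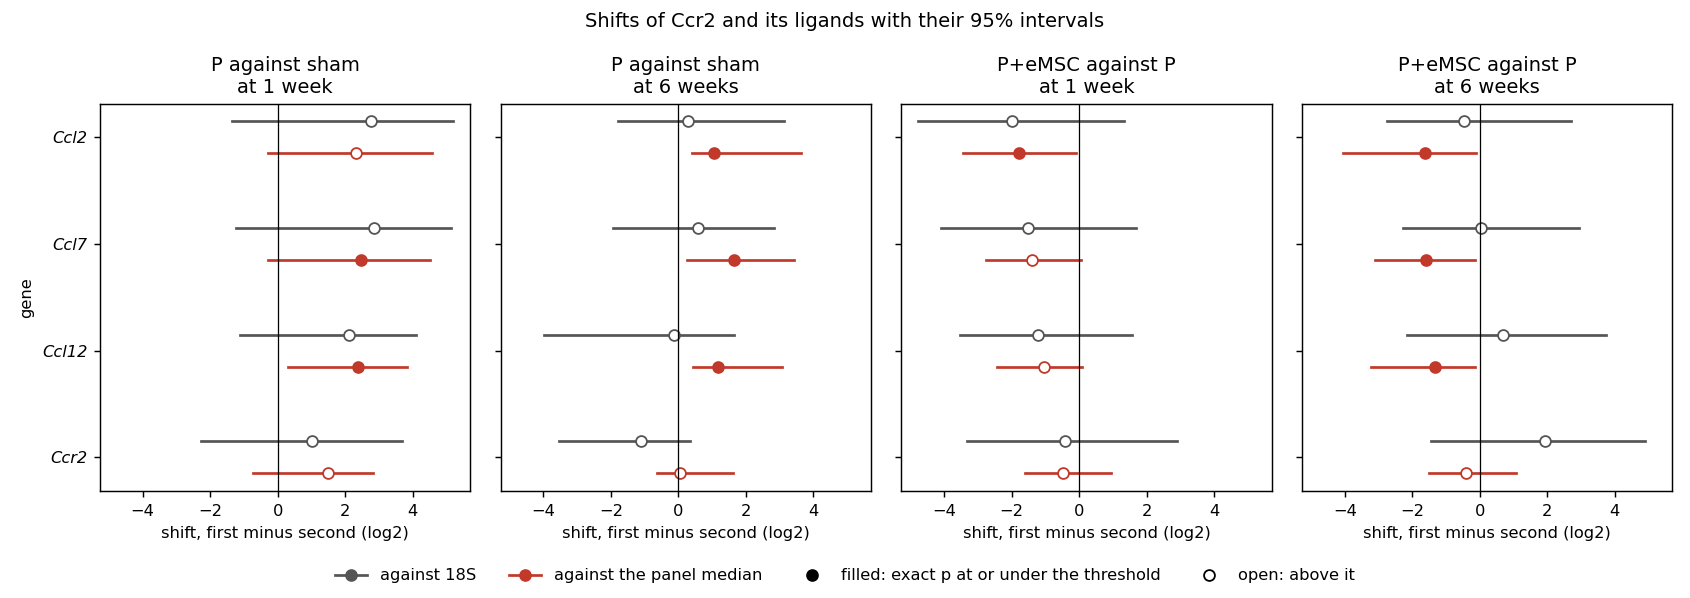
Hodges-Lehmann shift (log2, horizontal axis, first group minus second) of each gene in 4 comparisons, with bars for the exact 95% interval, against 18S (grey) and against the panel median (red); filled points are called. No grey point is filled, and the red points of the 3 ligands are filled above 0 in P against sham and below 0 in P+eMSC against P at 6 weeks, where those of *Ccr2* are unfilled.

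Against the sham controls, the ligands were shifted up in P, opposite to P+eMSC against P, at 1 week and, with the panel median, at 6 weeks. At 6 weeks against 18S, *Ccl7* was above 0 in both comparisons (0.58 and 0.05), and *Ccl12* was below 0 in P against sham (-0.13). Both comparisons share the P mice, so opposite signs are not independent of each other. At 1 week, against 18S, 0 of 4 genes were called in P (5.56% of all genes), with shifts of 2.78 for *Ccl2* (-1.36 to 5.21, exact p = 0.366), 2.87 for *Ccl7* (-1.24 to 5.14, exact p = 0.234), 2.11 for *Ccl12* (-1.11 to 4.11, exact p = 0.366) and 1.01 for *Ccr2* (-2.27 to 3.69, exact p = 0.534). The median over all 54 genes was -0.10. Against the panel median, *Ccl12* (2.38, 0.31 to 3.83, exact p = 0.0221) and *Ccl7* (2.48, -0.29 to 4.52, exact p = 0.0513) were called higher, beside 7.41% of all genes, and *Ccl2* (2.33, exact p = 0.0734) and *Ccr2* (1.49, exact p = 0.101) were not. Mouse 2269 was the high mouse of these sham controls. Without it, all 4 genes were called higher in P against the panel median (smallest exact p = 0.00216), and 0 of 4 against 18S. In that setting 27.8% of all 54 genes were called higher against the panel median. The *Ccl7* call ended without any 1 of 9 other mice, while the *Ccl12* call held without each mouse in turn.

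At 6 weeks, against 18S, 0 of 4 genes were called in P against sham, where 25.9% of all genes were called. The shifts were 0.28 for *Ccl2* (exact p = 0.628), 0.58 for *Ccl7* (exact p = 0.366), -0.13 for *Ccl12* (exact p = 0.852) and -1.10 for *Ccr2* (-3.54 to 0.35, exact p = 0.142), around a median of -0.83 over all genes. Leaving out mouse 2356 alone, *Ccr2* was called lower (-1.71, -4.72 to -0.09, exact p = 0.0350). The share of all genes called lower is not given for that setting. It was 25.9% with all mice and 22.2% without mice 52 and 2356, where 0 of the 4 genes were called. How the *Ccr2* call compares with the panel without mouse 2356 alone was not tested. Against the panel median, all 3 ligands were called higher in P than in sham, beside 16.7% of all genes. *Ccl2* had a shift of 1.07 (0.42 to 3.64, exact p = 0.0140), *Ccl7* of 1.64 (0.27 to 3.43, exact p = 0.0221) and *Ccl12* of 1.19 (0.44 to 3.08, exact p = 0.0200), each with an adjusted p of 0.270. *Ccr2* had a shift of 0.05 (-0.65 to 1.63, exact p = 0.755). Without mice 52 and 2356, *Ccl2* and *Ccl7* kept the call and *Ccl12* did not (exact p = 0.0649), with 5.56% of all genes called higher. Leaving out any single mouse ended none of the 3 calls, and both other panel references gave the same calls in P against sham in both weeks.

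P+eMSC did not differ from sham in any of the 4 genes beyond the spread between mice, at 1 week (0 of 4 called, 0% of all genes) or 6 weeks (0 of 4, 0% of all genes). The 18S shifts lay between 0.29 and 1.12 at 1 week (exact p from 0.259 to 0.805) and between -0.13 and 0.61 at 6 weeks (exact p from 0.731 to 1). For *Ccl2* at 6 weeks the interval ran from -2.43 to 2.81, which includes shifts as large as those given above. Set against the panel median, 0 of 4 were called in either week (of all genes, 0% at 1 week and 1.85%, all lower, at 6 weeks). Without mouse 2269, *Ccl7*, *Ccl12* and *Ccr2* were called higher in P+eMSC than in sham at 1 week with that reference, as were 11.1% of all genes.

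Between 6 weeks and 1 week, 0 of 4 genes were called in sham (3.7% of all genes), in P (0%) or in P+eMSC (0%). The largest 18S shifts were those within P, -1.25 for *Ccl2*, -1.47 for *Ccl7*, -1.60 for *Ccl12* and -1.95 for *Ccr2* (exact p from 0.282 to 0.534). Against the panel median, too, 0 of 4 were called in each treatment (of all genes, 3.7% in sham, 0% in P and 0% in P+eMSC). Without mice 52 and 2356, *Ccl12* and *Ccr2* were called lower at 6 weeks than at 1 week in P with that reference (smallest exact p = 0.0411), and they were the 3.7% of all genes called lower. The difference between the weeks in the effect of eMSC was tested as an interaction in limma over all groups, and 0 of 4 genes, like 0% of all 54, had an adjusted p below 0.05 (0 had an unadjusted p below 0.05). The estimate was 1.36 ± 1.58 (SE) for *Ccl2*, 1.32 ± 1.53 for *Ccl7*, 2.05 ± 1.58 for *Ccl12* and 2.40 ± 1.73 for *Ccr2* (adjusted p from 0.485 to 0.550), all above 0 as were the other 50 genes. With the panel median as reference the estimates lay between -0.33 and 0.03.

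Ligand and receptor were then related within each mouse by taking the *Ccr2* Ct minus the ligand Ct, in which 18S cancels. These ratios varied less between mice than the levels against 18S. The pooled SD within groups was 2.37 for *Ccr2*. It was 0.864 for *Ccl7* minus *Ccr2*, 2.12 for *Ccl12* and 0.842 for *Ccl12* minus *Ccr2*, and 2.08 for *Ccl2* and 1.26 for *Ccl2* minus *Ccr2*. Without mice 52 and 2356 the SD was 1.95 for *Ccr2*, 1.97, 1.89 and 2.05 for *Ccl7*, *Ccl12* and *Ccl2*, and 0.852, 0.792 and 1.26 for their ratios to *Ccr2*. Set against the panel median the SD also fell, to 1.10 for *Ccr2*, 1.36 for *Ccl7* and 1.23 for *Ccl12* over all mice.

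In P, all 3 ligands had their highest medians relative to the receptor. *Ccl7* minus *Ccr2* ranged in P from -0.92 to 1.23 (median -0.10) at 1 week and from -1.06 to 1.65 (median -0.10) at 6 weeks. In sham it ranged from -2.10 to 0.84 (median -1.62) and from -2.10 to -0.15 (median -1.60), and in P+eMSC from -1.86 to 0.17 (median -1.27) and from -2.52 to 0.20 (median -0.93). The ranges of the 3 groups overlapped in both weeks.

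*Ccl7* minus *Ccr2* was higher in P than in sham at 1 week (1.45, 0.21 to 2.03, exact p = 0.0350) and at 6 weeks (1.25, 0.04 to 2.60, exact p = 0.0221). Of the 53 genes set against *Ccr2*, 1.89% were called higher at 1 week, which is *Ccl7* alone, and 5.66% at 6 weeks. *Ccl2* minus *Ccr2* (1.10 and 1.25) and *Ccl12* minus *Ccr2* (0.84 and 0.88) had shifts of the same sign that were not called (exact p from 0.138 to 0.234). The *Ccl7* call ended without any 1 of 6 mice at 1 week (mouse 2396 of P, and 126, 125, 120, 119 and 400 of sham) and held without each mouse in turn at 6 weeks.

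In P+eMSC against P, all 6 ligand ratios had shifts below 0, and 3 were called. At 1 week *Ccl2* minus *Ccr2* (-1.12, -2.38 to -0.09, exact p = 0.0350) and *Ccl7* minus *Ccr2* (-1.005, -1.87 to 0.02, exact p = 0.0513) were called lower, within 5.66% of 53 genes called. The interval of *Ccl7* minus *Ccr2* includes 0. *Ccl12* minus *Ccr2* was not called (-0.64, exact p = 0.0734). At 6 weeks *Ccl12* minus *Ccr2* was called lower (-1.12, -2.19 to -0.04, exact p = 0.0401), the gene behind the 1.89% called, and *Ccl7* minus *Ccr2* (-1.08, exact p = 0.0530) and *Ccl2* minus *Ccr2* (-1.53, exact p = 0.209) were not. Over the 9 comparisons, 5 of 27 ligand ratios were called, with adjusted p from 0.355 to 0.937 over 53 genes, and none in P+eMSC against sham or between the weeks. Of all 53 genes set against *Ccr2*, 0% to 11.3% were called higher in a comparison and 0% to 5.66% lower. The 11.3% were those of 6 weeks against 1 week in P. The comparisons of P with sham and of P+eMSC with P share the P mice, so their opposite signs are not independent of each other. Without mice 52 and 2356, 6 of 27 were called, *Ccl7* minus *Ccr2* joining at 6 weeks in P+eMSC against P, where 3.77% of the 53 genes were called lower. The p values of P+eMSC against P lay near the threshold: leaving out any 1 of 8 mice ended the call of *Ccl2*, any 1 of 11 that of *Ccl7* and any 1 of 9, mouse 52 among them, that of *Ccl12*. The shifts without each mouse kept their sign, from -2.02 to -1.001 for *Ccl2*, from -1.20 to -0.85 for *Ccl7* and from -1.26 to -0.86 for *Ccl12*.

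**Figure D3:**
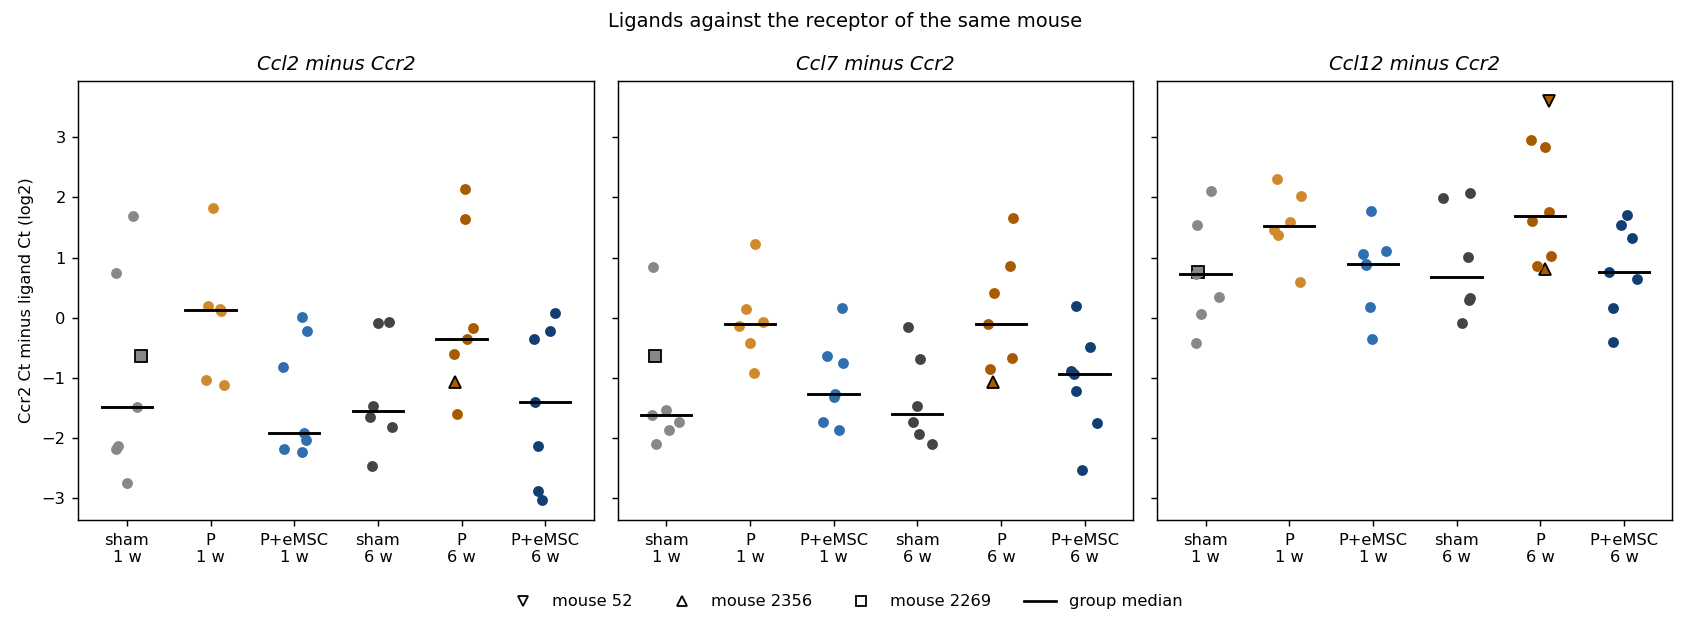
*Ccr2* Ct minus ligand Ct (log2, vertical axis) in each mouse by treatment and week; points are mice and bars group medians. The median of P lies above those of sham and P+eMSC in all 3 panels and both weeks, with overlapping groups; for *Ccl12* mouse 52 is the highest P mouse.

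Across mice, the ligands followed the receptor. With each group mean removed, the 18S values of *Ccl12* and *Ccr2* had a Pearson r of 0.935 (rho = 0.918, 41 mice), those of *Ccl7* and *Ccr2* 0.909 (rho = 0.893, 40 mice) and those of *Ccl2* and *Ccr2* 0.814 (rho = 0.758, 40 mice), each with a permutation p of 1e-05, the smallest that 100000 permutations within groups can give (adjusted p = 1.5e-05 over 53 genes). Leaving out the 2 mice farthest from the *Ccr2* median (52 and 2356 for *Ccl12*, 2269 and 2356 for the others) gave r = 0.916, 0.884 and 0.759. Both values of a mouse share its 18S Ct and its RNA, and 98.1% of the 53 genes passed the same test, with a median r of 0.764, so a high r with *Ccr2* was the rule in this panel. *Ccl12* ranked 2 of 53, *Ccl7* 6 and *Ccl2* 20.

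Set against the panel median, r was 0.774 for *Ccl7* (permutation p = 1e-05, adjusted p = 0.00018), 0.745 for *Ccl12* (1e-05, adjusted 0.00018) and 0.572 for *Ccl2* (permutation p = 0.00086, adjusted p = 0.0028). They ranked 1, 2 and 8 of 53 genes, whose median r was 0.316 and of which 66% passed. Without mice 2269 and 2356 these values were 0.704, 0.669 and 0.447. In the mice numbered below 1000 the 18S r was 0.914 for *Ccl12*, 0.900 for *Ccl7* and 0.728 for *Ccl2*, and in those numbered above 2000 it was 0.951, 0.934 and 0.849. The number series is read from the animal numbers and is not a documented batch.

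**Figure D4:**
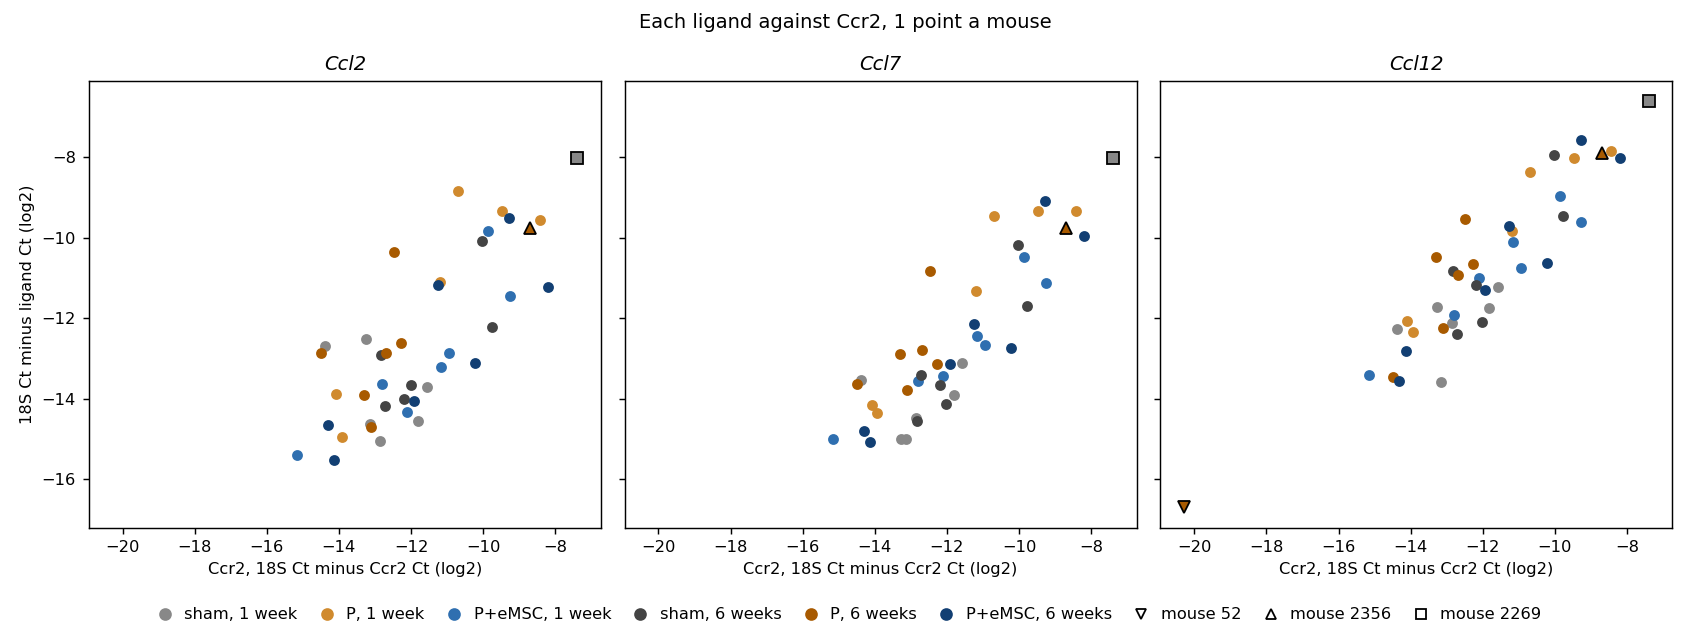
Level of each ligand (vertical axis) against that of *Ccr2* (horizontal axis), both as 18S Ct minus gene Ct (log2), 1 point a mouse and 1 colour a group. Points of all 6 groups lie along 1 rising band, with r = 0.814 for *Ccl2*, 0.909 for *Ccl7* and 0.935 for *Ccl12* after removing group means.

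Within single groups, r against 18S between *Ccl12* and *Ccr2* ran from 0.838 in sham at 6 weeks (6 mice, exact permutation p = 0.0611) to 0.971 in P at 1 week (6 mice, exact permutation p = 0.00278). It ran from 0.834 to 0.954 for *Ccl7* and from 0.703 to 0.909 for *Ccl2*. In the 1 week sham controls r was 0.753 for *Ccl2* with a rho of 0.107. Mouse 2269 was the highest mouse of this group in both genes, but r within the group without it was not computed. The median r of all genes within a group ranged from 0.700 to 0.917. With the panel median, r within groups ran from 0.584 to 0.867 for *Ccl7*, from 0.611 to 0.850 for *Ccl12* and from 0.480 to 0.698 for *Ccl2*, and with 6 to 8 mice a group no adjusted p was below 0.05 (smallest 0.143).

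The genes most like *Ccr2* over the 41 mice were, against 18S, *Col3a1* (the highest r of the panel), *Ccl12* (0.935), *Col1a1* (0.926), *Col6a2* (0.914) and *Mrc1* (0.911), which are collagen genes of fibroblasts and a macrophage receptor beside the ligand. With the panel median as reference they were *Ccl7* (0.774), *Ccl12* (0.745), *Col3a1* (0.743), *Cxcl10* (0.637) and *Col1a1* (0.619). *Ccl7* and *Ccl12* had an r of 0.951 against 18S and 0.889 against the panel median, and each was the nearest of all genes to the other. *Ccl2* was nearest to *Timp1*, a metalloproteinase inhibitor induced in inflamed stroma (0.941 and 0.884), then to *Ccl7* (0.930 and 0.862). *Ccl11*, which encodes the eosinophil chemokine eotaxin and sits between *Ccl7* and *Ccl12*, had an r with *Ccr2* of 0.808 against 18S and of -0.28 against the panel median.

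**Figure D5:**
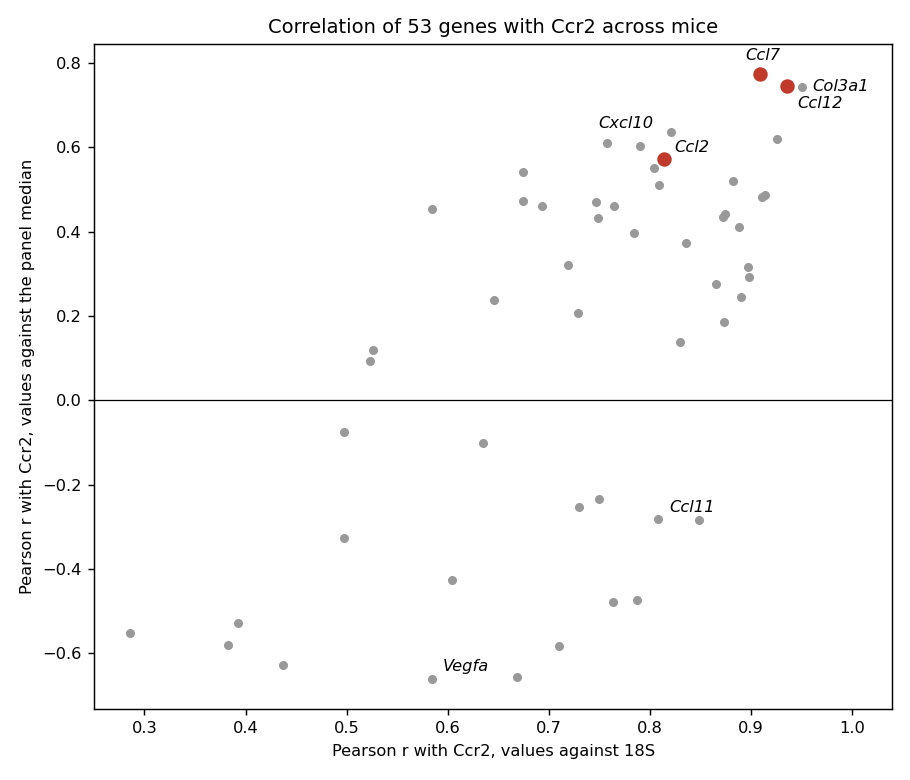
Pearson r with *Ccr2* across mice, group means removed, for each of the other 53 target genes, with values against 18S (horizontal axis) and against the panel median (vertical axis); the ligands are red. All 53 are above 0 on the horizontal axis, and *Ccl7* and *Ccl12* are the highest on the vertical axis, at 0.774 and 0.745, while *Ccl11* lies at -0.28.

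Other genes of the pathway were counted by list. Of 9 other chemokines, 2 other chemokine receptors (*Ccr1* and *Ccr7*), 3 cytokines that induce *Ccl2* and 5 macrophage state genes, none was called in P+eMSC against P at 1 week against 18S. At 6 weeks 2 of 9 chemokines were called higher, *Cxcl9*, an interferon-induced T cell attractant (3.44, exact p = 0.0111), and *Ccl11* (1.73, exact p = 0.0401), and none of the other lists. Of all 54 genes, 0% were called at 1 week and 18.5% at 6 weeks. With the panel median, 1 of 9 chemokines (*Cxcl1*, a neutrophil attractant, -2.15, exact p = 0.0221), 1 of 2 receptors (*Ccr1*, -1.14, exact p = 0.0513), 0 of 3 cytokines and 1 of 5 macrophage genes (*Il4ra*, the IL-4 receptor, -0.39, exact p = 0.0128) were lower in P+eMSC at 1 week. In that comparison 9.26% of all genes were called lower. At 6 weeks *Cxcl9* stayed higher with that reference (1.44, exact p = 0.0379), *Il10*, an anti-inflammatory cytokine, was lower (-0.84, exact p = 0.0379), and no receptor or inducing cytokine was called. Of all genes, 1.85% were called higher and 14.8% lower. *Ccl11* was not among the genes called there.

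In P against sham, *Il1b*, whose product induces *Ccl2*, was the inducing cytokine called higher against the panel median, by 2.49 at 1 week (exact p = 0.0221) and by 3.27 at 6 weeks (exact p = 0.0350). Of all genes, 7.41% were called higher at 1 week and 16.7% at 6 weeks. 0 of 9 chemokines and 0 of 2 receptors were called in either week with that reference, and *Il4ra* was higher at 6 weeks (0.41, exact p = 0.0326). Against 18S the only call in these lists was *Ccl11*, lower in P at 6 weeks (-1.48, exact p = 0.00799), as were 25.9% of all genes. The medians of the inducing cytokines were 1.71 and 1.96 above sham against the panel median, next to 2.38 and 1.19 for the 3 CCR2 ligands and 0.45 and 0.36 for all 54 genes.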

How the data were processed

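RNA (RNeasy) was reverse transcribed with SuperScript III, preamplified with pooled TaqMan assays and run on a Fluidigm dynamic array. The authors deposited a table of Ct values, a score in cycles without normalization that the Fluidigm software gave, and a table of fold change ratios against the sham controls. The deposited ratio table was used only to see against which week each mouse had been set, since *Ccl2* and *Ccl12* are reciprocals there. Values were 18S Ct minus gene Ct, and undetected values were left out. A Ct has no read depth, so the number of mice limits the precision.

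Groups came from the labels. The study's test, a two-sided Mann-Whitney U test, was run exactly on each of 54 genes (a group needed 4 or more values), called at the study's threshold of 0.0513, with Benjamini-Hochberg adjustment over all genes. Replicates are separate mice. Genes were named by these rules: the 4 genes throughout, the 5 genes most like *Ccr2* and the 3 most like each ligand, and up to 2 genes of each pathway list with the smallest p. *Ccr2*, its ligands and the lists were chosen with earlier results of these data known. *Ccl11* as a chromosomal neighbour was named after its values were seen.

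The alternatives were the panel median of 21 genes as the reference, undetected values set 1 cycle below the lowest, an exact p below 0.05, an adjusted p below 0.05, limma without and with the animal number series (below 1000 or above 2000), an exact permutation test of the mean, and leaving out mice. Other panel references and leaving out mouse 2269 were chosen later, after seeing the data. The tests were checked on simulated data, in which genes varied independently of each other. Recovery of changes was required there only at a spread between mice smaller than that of the 4 genes. Python 3.11.15 with numpy 2.4.6, pandas 2.3.3 and scipy 1.17.1, and R 4.3.3 with limma 3.58.1 were used.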

Additional observations from a re-analysis of the deposited data

Results flagged for a closer look

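In the 1 week sham controls, mouse 2269 stood far above the other 6 mice in all 4 genes, by a gap of more than the share of the group's range that separates an outlier (Dixon's test). Its values were -8.02 for *Ccl2*, -8.02 for *Ccl7*, -6.62 for *Ccl12* and -7.38 for *Ccr2*, and the gap to the next mouse took 0.642, 0.728, 0.663 and 0.598 of the range of its group. Chance flags about 1 in 20 groups, and 24 were tested. The 4 flags come from 1 mouse and from genes that move together, so they are not separate events. Its panel median against 18S was -6.08, also the highest of its group. No other mouse was flagged, mouse 52 included.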

How the results depend on the processing

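The 18 main results were 4 genes in P+eMSC against P in both weeks, the counts of the other comparisons, of the interaction and of the ligand ratios, and the correlations. Over them, 337 values were computed under alternative settings. Of these, 314 kept their direction and side of the threshold, 18 reversed, 3 counts moved and 2 became calls with their sign kept. Reversed values that also became calls are counted only as reversals. Such were *Ccl7* (exact p = 0.0379) and *Ccl12* (exact p = 0.0289) against the panel median in P+eMSC against P at 6 weeks. The panel median in place of 18S had the widest effect: in P+eMSC against P it gave -1.78 for *Ccl2* at 1 week and -1.63 for *Ccl2*, -1.59 for *Ccl7*, -1.32 for *Ccl12* and -0.40 for *Ccr2* at 6 weeks, the last 3 with their sign turned, raised the number of the 4 genes called in P against sham from 0 to 2 at 1 week and from 0 to 3 at 6 weeks, and turned the interaction of *Ccl7* (-0.0043) and *Ccl12* (-0.33), which are not among the 18 reversals. Shifts near 0 turned with the test: *Ccl7* at 6 weeks was -0.018 by limma, -0.018 by the permutation test of the mean and -0.45 by limma with the number series, and *Ccr2* at 1 week was 0.044 by the last. Without each mouse in turn, in P+eMSC against P, *Ccr2* ran from -0.996 to 0.22 at 1 week, *Ccl7* from -0.30 to 0.56 and *Ccl12* from -0.027 to 1.22 at 6 weeks, and the count in P against sham at 6 weeks from 0 to 1 (*Ccr2*, without mouse 2356). The causes were not tested. No paired analysis was possible because each mouse had 1 treatment and no animal number occurs in more than 1 group. The labels tie no mouse to an eMSC donor, so donors shared by the P+eMSC groups could not be used either. With 6 to 8 mice a group, intervals of the 18S shifts spanned several cycles, so changes within them were not detectable.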

Other observations

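After the panel median was removed, 5 genes, chosen here for the lowest values, were the least like *Ccr2* across mice. The r with *Ccr2* was -0.66 for *Vegfa*, the main vascular growth factor, -0.66 for *Tgfb3*, -0.63 for *Timp4*, -0.58 for *Tgfbr1* and -0.58 for *Pdgfa*. A reference made from the panel itself sets genes against each other, so values below 0 arise for some genes by its construction. Against 18S all 53 genes had an r above 0, the lowest being 0.286.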
